A study of Mus musculus with 16 samples.

Results

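The acute phase proteins examined here are 10 genes for plasma proteins that the liver secretes: the serum amyloid A genes Saa1, Saa2, Saa3 and Saa4, the orosomucoid genes Orm1, Orm2 and Orm3, the lipocalin gene Lcn2, the haptoglobin gene Hp and the serum amyloid P gene Apcs. They were taken by name, as the rows of the gene count table whose Ensembl identifier belongs to these symbols. All 10 were present among the 46078 genes of the table, and all 10 passed the filter on low counts, which left 15075 genes to be tested.

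RNA-seq was performed on polyadenylated liver RNA in 16 libraries, 4 in each of 4 groups, to ask how feeding and fasting change the liver transcriptome on a control diet and on a high-fat diet. CD fed and CD fast livers came from mice on a control diet, and HFD fed and HFD fast livers from mice on a diet with 60% of its calories from fat. Fed mice had free access to food and fasted mice had been without food for 16 h, and all mice had spent 16 weeks on their diet. The labels give the strain as C56B6/J, written C57BL6/J in the study's methods, which describe male mice that entered the diets as young adults, and no allele or further agent is named for any group. Each library is a separate sample by its label, so p-values measure the spread between these samples. Library totals ranged from 41364448 to 57583153 counts. The tissue label was checked with 8 hepatocyte markers, whose summed level was between 72985 and 136586 CPM (counts per 1000000 counts of the scaled library total) in every library. Most of this sum came from Alb, the albumin gene. These are bulk samples, in which fewer cells of a type and less RNA per cell cannot be told apart.

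Acute phase proteins are plasma proteins whose synthesis in hepatocytes changes during infection, injury or other inflammatory states. Interleukin 6 acts through its receptor, gp130 and the transcription factor STAT3, and interleukin 1 and tumour necrosis factor act through NF-kB, with C/EBP factors binding many of the target promoters. In the mouse the serum amyloid A proteins SAA1 and SAA2 and the pentraxin serum amyloid P are classical members of this response.

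Several members are close copies of each other, and this limits how well their counts can be separated. In the GENCODE M21 annotation of GRCm38, Saa3, Saa4, Saa1 and Saa2 lie side by side on chromosome 7 between 46711998 and 46754313, and Orm1, Orm3 and Orm2 on chromosome 4 between 63344560 and 63365878. Saa1 and Saa2 are near-identical: their principal transcripts are 87.3% identical over their length, with a longest shared run of 99 bases. None of the 510 stretches of 100 bases (the read length) in the Saa1 transcript occurs unchanged in Saa2, and 24 (4.71%) occur with up to 2 mismatches. For Orm1 and Orm2, with 91.0% identity, 47 of 676 stretches (6.95%) are shared exactly and 133 (19.7%) with up to 2 mismatches. The other 3 members lie apart, Lcn2 on chromosome 2 from 32384633 to 32388252, Hp on chromosome 8 from 109575128 to 109579172 and Apcs on chromosome 1 from 172893961 to 172895041. Levels of Saa1 against Saa2, and of Orm1 against Orm2 and Orm3, are therefore uncertain where a read could be placed in either gene.

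The likeness extends to the promoters, which are shown because Saa1, Saa2, Orm2 and Orm3 were all higher after fasting in HFD livers and form 2 such pairs. The bases from 250 to 51 before the annotated start are given 5′ to 3′ from RefSeq (GRCm38.p6), at chr7:46743031-46743230 (minus strand) for Saa1, chr7:46751583-46751782 (plus strand) for Saa2, chr4:63362199-63362398 (plus strand) for Orm2 and chr4:63355908-63356107 (plus strand) for Orm3. Capitals mark matches to the C/EBP motif TTNNGNAA on either strand.
Saa1: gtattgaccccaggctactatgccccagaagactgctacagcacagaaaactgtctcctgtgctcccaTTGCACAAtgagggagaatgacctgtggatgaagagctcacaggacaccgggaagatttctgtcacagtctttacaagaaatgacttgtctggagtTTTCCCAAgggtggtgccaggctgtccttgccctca
Saa2: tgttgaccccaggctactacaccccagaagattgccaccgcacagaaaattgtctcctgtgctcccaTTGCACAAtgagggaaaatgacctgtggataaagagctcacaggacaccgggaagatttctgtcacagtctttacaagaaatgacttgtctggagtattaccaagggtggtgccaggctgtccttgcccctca
Orm2: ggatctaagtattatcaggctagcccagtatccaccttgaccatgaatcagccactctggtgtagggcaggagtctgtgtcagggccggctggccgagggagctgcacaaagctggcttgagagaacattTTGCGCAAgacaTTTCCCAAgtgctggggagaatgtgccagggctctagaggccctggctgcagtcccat
Orm3: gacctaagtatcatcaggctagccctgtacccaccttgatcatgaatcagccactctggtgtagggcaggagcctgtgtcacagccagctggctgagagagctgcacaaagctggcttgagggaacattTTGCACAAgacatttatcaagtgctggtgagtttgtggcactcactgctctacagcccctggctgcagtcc
Over the 250 bases before the start, Saa1 and Saa2 were 94.8% identical, with 11 mismatched and 2 gapped positions, and Orm2 and Orm3 were 85.9% identical. The same 8 letters, TTGCACAA, stood 182 to 175 bases before the start of Saa1 and 183 to 176 bases before that of Saa2, and also 121 to 114 bases before that of Orm3. Orm2 had TTGCGCAA at 120 to 113 bases, which reads the same on both strands, and TTTCCCAA occurred in Saa1 and Orm2. RefSeq held promoters for 8 of the 10 members. The C/EBP motif was found in 7 of these 8 windows, against 36.8% of 32851 promoters of the same length. The NF-kB motif was searched only as GGGNN followed at once by TTTCC, which was in 0 of the 8 (1.41% of all promoters). Other forms of this site were not searched. The STAT motif TTCNNNGAA was in 1, Apcs (7.02%), and the interleukin 6 response motif CTGGGA was also in 1, Apcs (27.0%). TATAAA was in 2, Orm2 and Orm3 (12.4%). All were searched on both strands, and a match describes the letters only.

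To compare levels between genes, CPM were divided by the length of the principal transcript in kilobases. In CD fed livers Hp, whose product binds free haemoglobin, was highest at 1450 ± 189 CPM per kilobase (SD, n = 4). It was followed by Orm1 at 512 ± 83.3, Saa4 at 123 ± 30.3, Apcs at 67.3 ± 13.4, Saa1 at 43.4 ± 24.1 and Saa2 at 15.3 ± 7.16 CPM per kilobase. Saa3, Orm2, Lcn2 and Orm3 had means below 10 CPM per kilobase. The libraries of Hp, Orm1 and Saa4 stood apart from those of the next gene in this order, whereas from Apcs down to Orm2 each gene overlapped with the next. In HFD fast livers the order differed, with Saa1 second at 762 ± 644 CPM per kilobase and Orm2 at 69.8 ± 58.9, close to Apcs at 65.4 ± 31.5. From Saa1 down to Lcn2 in that group, each gene overlapped with the next. The 10 genes together took 0.265% ± 0.0325 of the counts in fed and 0.448% ± 0.0981 in fasted livers on the control diet (SD, n = 4 each). On the high-fat diet they took 0.351% ± 0.0324 in the fed and 0.656% ± 0.193 in the fasted group.

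**Figure D1:**
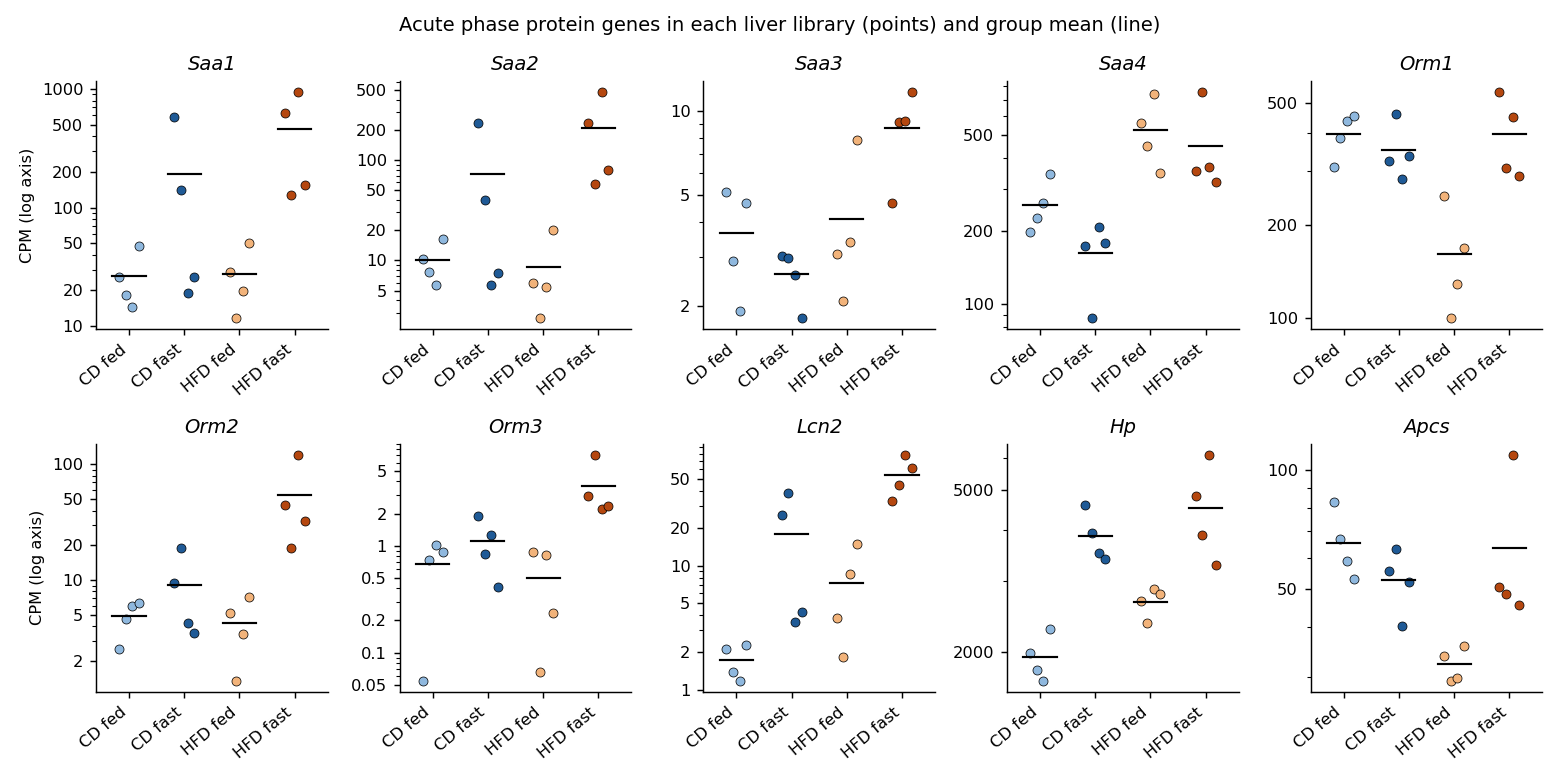
Level of the 10 acute phase protein genes in each liver library, in CPM on a log axis, with 4 points per group and a line at the group mean. The HFD fast libraries lie above all HFD fed libraries for Saa1, Saa2, Orm1, Orm2, Orm3, Lcn2, Hp and Apcs.

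Fasting raised most of these genes in HFD livers and fewer of them in CD livers. In HFD mice 8 of the 10 were higher after fasting at an adjusted p under 0.05 (edgeR quasi-likelihood test, adjusted over all genes), where 4.78% of all genes tested were higher. These were Saa1, Saa2, Orm1, Orm2, Orm3, Lcn2, Hp and Apcs. In CD mice 3 of the 10 were higher, Saa1, Lcn2 and Hp, where 13.7% of all genes tested were higher. The median log2 fold change of the 10 was 2.08 for fasting in HFD and 0.79 for fasting in CD, against 0.01 and -0.01 over all genes tested. The same 8 genes had every HFD fast library above every HFD fed library, which 8.02% of all genes had. In CD this held for 2 genes, Lcn2 and Hp, and for 13.1% of all genes. That fasting changed more members in HFD than in CD is a difference between counts. The change itself was compared by the diet by fasting interaction, which passed for 1 member, Orm1, where 1.23% of all genes passed in that direction.

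The diet had fewer calls. In fed mice 2 members were lower in HFD than in CD, Orm1 and Apcs (4.22% of all genes were lower). By edgeR 0 were higher (3.28% of all genes), where 3 had an unadjusted p under 0.05 and DESeq2 called 2 and limma-voom 0. In fasted mice 3 were higher in HFD, Saa3, Saa4 and Orm2 (3.05% of all genes were higher), and all 10 had a log2 fold change above 0. Without overlap between the libraries, 2 members lay higher (Saa4 and Hp) and 2 lower (Orm1 and Apcs) in HFD than in CD fed livers, which 7.22% and 8.51% of all genes did, and 3 lay higher in fasted livers (Saa3, Saa4 and Orm3; 6.55% of all genes). The median log2 fold change of the 10 was -0.06 in fed and 1.51 in fasted mice, against 0.01 and 0.01 over all genes. Each group enters 2 of these comparisons, so the fasting and diet results share libraries and are not independent of each other.

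**Figure D2:**
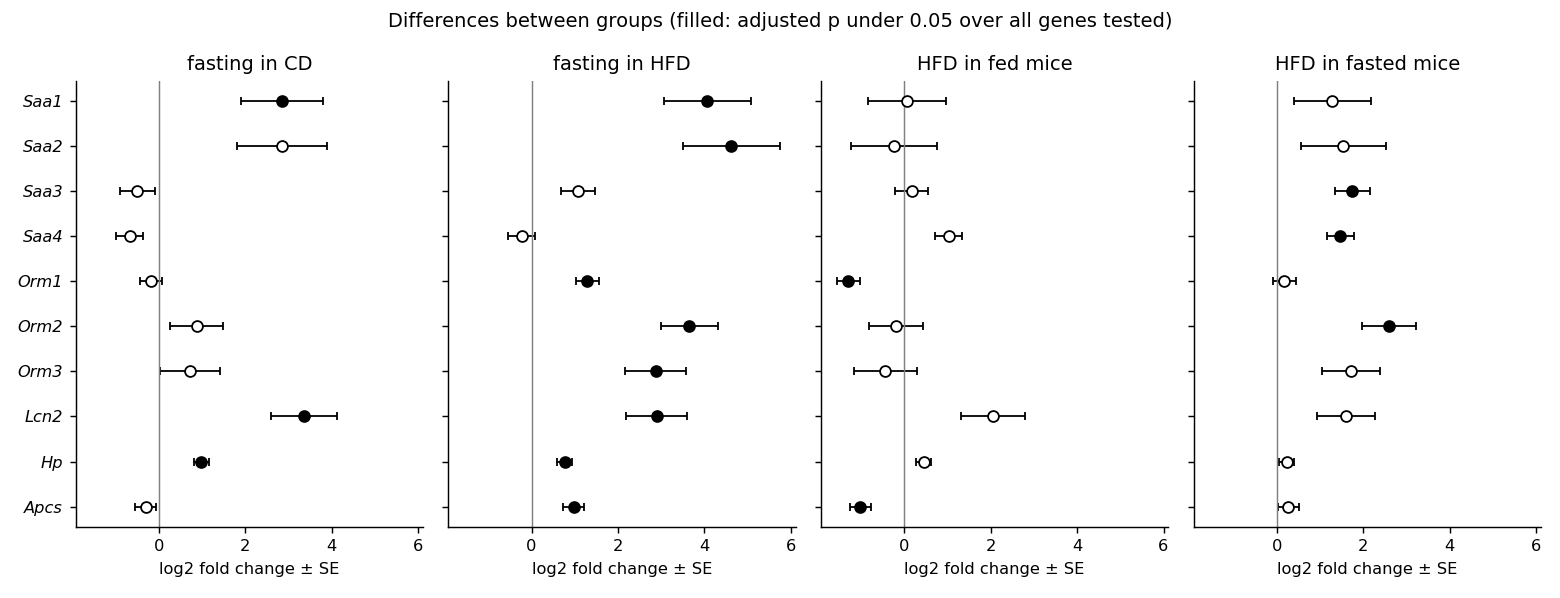
Log2 fold changes with standard errors of the 10 genes in the 4 comparisons, filled where the adjusted p was under 0.05. Filled points number 3 for fasting in CD, 8 for fasting in HFD, 2 for HFD in fed mice and 3 for HFD in fasted mice.

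The count for fasting in HFD depended on single libraries. It ranged from 3 to 9 over 16 leave-one-out fits, each made without a single library, and was 4 without HFD fed replicate 1, 3 without HFD fed replicate 2, 5 without HFD fed replicate 3 and 5 without HFD fast replicate 3. Orm1, Orm2 and Hp were called in all 16 of these. The count for fasting in CD was 1 (Hp) with limma-voom, and 2 to 4 when 1 library was left out. The count for HFD in fed mice was 1 (Orm1) without CD fed replicate 1, CD fed replicate 2 or HFD fed replicate 3. The count for HFD in fasted mice was 1 (Saa3) when only the groups compared were fitted.

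Saa1 and Saa2, apolipoproteins of high-density lipoprotein, had the largest log2 fold changes of fasting in HFD among the members. Saa1 was at 25.9, 18.1, 14.5 and 47.2 CPM in the CD fed libraries (replicates 1 to 4) and at 28.7, 11.7, 19.6 and 50.6 CPM in the HFD fed libraries. It was at 576, 140.5, 19.2 and 25.9 CPM in CD fast and at 633, 129, 938 and 156 CPM in HFD fast. All HFD fast libraries were therefore above all fed libraries, whereas CD fast replicates 3 and 4 remained within the range of the CD fed libraries. Saa1 was 16.8-fold higher after fasting in HFD (log2 fold change 4.07, SE 1.0, adjusted p = 0.0217) and 7.20-fold higher in CD (2.85, SE 0.95, adjusted p = 0.0383). The call in CD was lost in 5 of the 16 leave-one-out fits, namely without any of CD fed replicates 1 to 3 or CD fast replicates 1 and 2. Without CD fast replicate 1 the log2 fold change was 1.23 (adjusted p = 0.280). It was also lost with limma-voom (1.76, adjusted p = 0.160) and when only these groups were fitted (adjusted p = 0.0639). The call in HFD was lost in 4 of 16, without any of HFD fed replicates 1 to 3 or without HFD fast replicate 3, with a highest adjusted p of 0.0692, and the log2 fold change was 3.46 without the last of these.

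Saa2 followed Saa1 library by library. It was at 10.3, 7.66, 5.64 and 16.4 CPM in CD fed and at 235, 40.3, 5.65 and 7.49 CPM in CD fast libraries. In HFD fed libraries it was at 5.97, 2.67, 5.38 and 19.97 CPM, and in HFD fast libraries at 233, 57.3, 472 and 78.9 CPM. HFD fast replicate 3 was the highest and HFD fed replicate 2 the lowest of the 16 for both genes. Saa2 was 24.6-fold higher after fasting in HFD (log2 fold change 4.62, SE 1.12, adjusted p = 0.0204), a call lost in 4 of the 16 leave-one-out fits, the same ones as for Saa1 (adjusted p up to 0.0706). Its log2 fold change was 3.85 when HFD fast replicate 3 was left out and 5.49 when HFD fed replicate 4 was. In CD the log2 fold change was 2.85 (SE 1.04, adjusted p = 0.0549) and the groups overlapped. Without CD fast replicate 1 this change was 0.83 (adjusted p = 0.504), and with limma-voom it was 1.41 (adjusted p = 0.343). It passed with DESeq2 (adjusted p = 0.0264) and without CD fast replicate 3, CD fast replicate 4 or HFD fed replicate 4. Neither gene passed for the diet in fed mice (0.07 and -0.23) or in fasted mice (1.29 and 1.54, adjusted p = 0.387 and 0.338). In fasted mice the changes were 2.91 for Saa1, which did not pass, and 3.56 for Saa2, which passed (adjusted p = 0.0401), without CD fast replicate 1, and 0.68 and 0.77 without HFD fast replicate 3. With the counts of both genes summed and fitted as a single gene, the log2 fold changes of fasting were 4.22 in HFD (adjusted p = 0.0209) and 2.85 in CD (adjusted p = 0.0418).

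The division of reads between both genes was measured as the Saa2 share of Saa1 plus Saa2 counts. On the control diet it was 28.0% ± 1.65 in fed and 24.1% ± 3.28 in fasted livers, and on the high-fat diet 21.4% ± 4.93 in fed and 31.2% ± 3.15 in fasted livers (SD, n = 4 each), over 657 to 67264 counts per library. The difference in mean share was 9.79 percentage points for fasting in HFD (exact permutation test, two-sided, p = 0.0571) and -3.89 for fasting in CD (exact p = 0.114). For HFD against CD it was -6.61 percentage points in fed livers (exact p = 0.0857) and 7.07 in fasted livers (exact p = 0.0571). All 4 had an adjusted p of 0.114, where the smallest unadjusted p that 4 against 4 libraries allow is 0.0286. Thus none of the 4 differences in share passed the test. After adjustment over the 4, a difference at that smallest p could not pass alone, so the test cannot decide on any single difference.

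**Figure D3:**
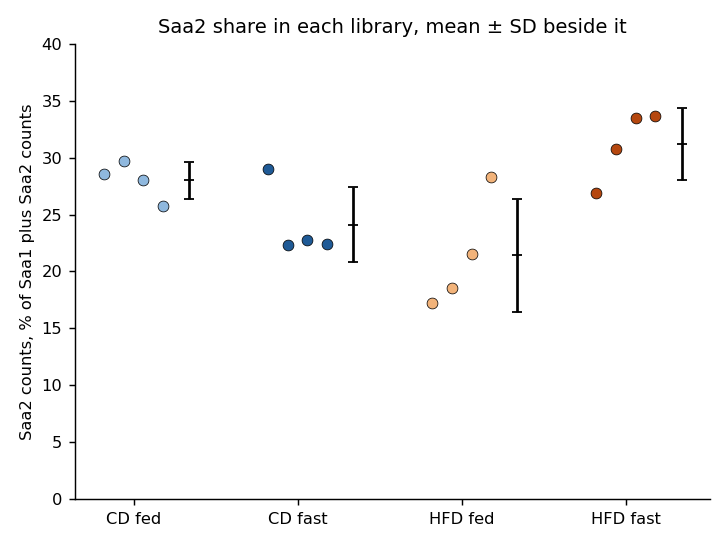
Share of Saa2 in the summed counts of Saa1 and Saa2 in each library, in percent from 0, with the group mean and SD beside the points. HFD fed libraries span 17.2% to 28.3% and HFD fast libraries 26.9% to 33.6%.

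Saa3, the serum amyloid A gene best known from macrophages and adipose tissue, was low in every library. It was at 5.14, 2.89, 1.92 and 4.66 CPM in CD fed, 3.02, 2.97, 2.58 and 1.81 CPM in CD fast, and 3.07, 2.08, 3.39 and 7.90 CPM in HFD fed libraries. In HFD fast libraries it was at 4.69, 9.13, 9.25 and 11.7 CPM, all above the 4 CD fast libraries. Saa3 was 3.35-fold higher in HFD than in CD fasted livers (log2 fold change 1.75, SE 0.40, adjusted p = 0.0176), a call lost without HFD fast replicate 4 (adjusted p = 0.0526). The fasting change in HFD was 1.08 (SE 0.39, adjusted p = 0.0948). The highest HFD fed library, replicate 4, overlapped with HFD fast, and without it the change was 1.61 (adjusted p = 0.0127), while DESeq2 gave 1.07 (adjusted p = 0.0398) with all libraries. The list of 11 macrophage markers, summed, ranged from 258 to 419 CPM in CD fast and from 344 to 576 CPM in HFD fast libraries. For these markers edgeR called 0 of the 11 between these groups (7 had an unadjusted p under 0.05), DESeq2 called 4 higher and limma-voom 0, and their part in the Saa3 difference was not tested.

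Saa4, a largely constitutive apolipoprotein of high-density lipoprotein, was higher in HFD than in CD fasted livers and had no call for fasting. It was at 198, 226, 261 and 345 CPM in CD fed libraries and at 559.9, 449.5, 742 and 347 CPM in HFD fed libraries, which did not overlap. It was at 173, 87.2, 208 and 179 CPM in CD fast and at 355, 751, 369 and 319 CPM in HFD fast libraries, which did not overlap either. Saa4 was 2.77-fold higher in HFD than in CD fasted livers (log2 fold change 1.47, SE 0.32, adjusted p = 0.0135), with an adjusted p of 0.0632 when only these groups were fitted. In fed livers the change was 1.03 (SE 0.31, adjusted p = 0.0579), and it passed without CD fast replicate 2, HFD fed replicate 4 or HFD fast replicate 2, with DESeq2 (adjusted p = 0.0109), with total count scaling (0.0337) and when only these groups were fitted (0.0335). The fasting changes were -0.67 in CD (adjusted p = 0.128) and -0.23 in HFD (adjusted p = 0.688).

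The orosomucoid genes encode alpha-1-acid glycoproteins, which bind basic drugs and lipids in plasma. Orm1 was at 310.2, 386, 438 and 453 CPM in CD fed libraries and at 249.9, 99.99, 129 and 168 CPM in HFD fed libraries. All HFD fed libraries were thus below all CD fed libraries. Orm1 was at 324, 459, 283 and 336 CPM in CD fast and at 541, 307, 449 and 289 CPM in HFD fast libraries, where the groups overlapped. In fed livers it was 2.45-fold lower in HFD than in CD (log2 fold change -1.29, SE 0.26, adjusted p = 0.00869). After fasting in HFD it was 2.45-fold higher (1.29, SE 0.26, adjusted p = 0.00875), whereas the change in CD was -0.18 (SE 0.26, adjusted p = 0.652). The fasting change in HFD exceeded that in CD by 1.47 on the log2 scale (SE 0.37, adjusted p = 0.0453). This interaction was lost in 12 of the 16 leave-one-out fits, with the highest adjusted p (0.0956) without HFD fed replicate 3. It was kept without CD fast replicate 2, HFD fed replicate 1, HFD fast replicate 2 or HFD fast replicate 4.

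Orm2 was low in fed livers, at 2.55, 4.62, 6.05 and 6.395 CPM in CD fed and 5.19, 1.36, 3.43 and 7.21 CPM in HFD fed libraries. In CD fast libraries it was at 9.46, 18.9, 4.25 and 3.48 CPM, and in HFD fast libraries at 44.4, 18.9, 121 and 32.3 CPM. Every HFD fast library was above every fed library, while HFD fast replicate 2 and CD fast replicate 2 were level with each other. Orm2 was 12.5-fold higher after fasting in HFD (log2 fold change 3.65, SE 0.66, adjusted p = 0.00468), with a change of 0.87 (SE 0.62, adjusted p = 0.326) in CD. Without HFD fast replicate 3 the change in HFD was 2.88, and without CD fast replicate 2 that in CD was 0.22. It was 6.03-fold higher in HFD than in CD fasted livers (2.59, SE 0.63, adjusted p = 0.0224). This call was lost without CD fast replicate 1, CD fast replicate 3 or HFD fast replicate 3 (adjusted p up to 0.0813), and when only these groups were fitted (adjusted p = 0.0771). The log2 fold change was 1.83 without HFD fast replicate 3 and 3.24 without CD fast replicate 2. The interaction was 2.78 (SE 0.88, adjusted p = 0.1003).

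Orm3 was near the detection limit, taken as 3 counts, in 2 fed libraries. It was at 0.0547, 0.742, 1.01 and 0.875 CPM in CD fed and 0.868, 0.0657, 0.823 and 0.237 CPM in HFD fed libraries, where the lowest values of both groups rest on 3 counts. It was at 1.91, 0.844, 1.26 and 0.414 CPM in CD fast and at 2.95, 7.07, 2.20 and 2.36 CPM in HFD fast libraries. All HFD fast libraries were above all other libraries. Orm3 was 7.31-fold higher after fasting in HFD (log2 fold change 2.87, SE 0.71, adjusted p = 0.0227), a call lost without HFD fed replicate 2 or HFD fast replicate 2 (adjusted p up to 0.0579). In fasted livers its diet difference was 1.72 (SE 0.67, adjusted p = 0.118).

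Lcn2 encodes lipocalin 2, which binds bacterial siderophores and is made by hepatocytes and neutrophils. It was at 2.11, 1.39, 1.18 and 2.29 CPM in CD fed and at 25.7, 38.3, 3.52 and 4.24 CPM in CD fast libraries. It was at 3.81, 1.82, 8.49 and 14.9 CPM in HFD fed and at 33.1, 44.5, 77.9 and 60.9 CPM in HFD fast libraries. Fasted libraries were above the fed libraries of their diet in both cases, although CD fast replicates 3 and 4 were far below replicates 1 and 2. Lcn2 was 10.2-fold higher after fasting in CD (log2 fold change 3.35, SE 0.76, adjusted p = 0.00494), a call kept without any 1 library (2.67 without CD fast replicate 2) but not with limma-voom (2.62, adjusted p = 0.0617). It was 7.45-fold higher after fasting in HFD (2.90, SE 0.71, adjusted p = 0.0211), lost without HFD fed replicate 1, HFD fed replicate 2 or HFD fast replicate 3 (adjusted p up to 0.0735), and the change was 3.53 without HFD fed replicate 4. The diet differences were 2.06 in fed livers (SE 0.74, adjusted p = 0.104) and 1.60 in fasted livers (SE 0.67, adjusted p = 0.145). The first passed with DESeq2 (2.06, adjusted p = 0.0468) and the other with limma-voom (2.31, adjusted p = 0.0355). Without HFD fed replicate 4 the difference in fed livers was 1.43, and without CD fast replicate 2 that in fasted livers was 2.29.

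Neutrophils, a further source of Lcn2, were checked with 11 marker genes. Their summed level was 3.43 to 5.92 CPM in CD fed and 4.09 to 5.37 CPM in CD fast libraries, and 2.88 to 10.8 CPM in HFD fed and 5.18 to 8.62 CPM in HFD fast libraries. Only 4 of the 11 passed the filter on low counts and edgeR called 0 of these 4 in any of the 5 comparisons. For fasting in HFD, 1 of the 4 had an unadjusted p under 0.05 and was called by DESeq2, and limma-voom called 0. The granule gene Ngp had 0 to 9 counts in every library. HFD fed replicate 4, the highest HFD fed library for Saa1, Saa2, Saa3, Orm2 and Lcn2, had 3.64 CPM of Ltf, another granule gene, which had at most 5 counts in each of the other libraries. The part of these markers in the results was not tested.

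Hp, the member with the highest level per kilobase, had the lowest coefficient of variation of the 10 in each group, from 8.22% to 27.2%. It was at 1998, 1810.5, 1706 and 2284 CPM in CD fed and at 4599, 3922, 3513 and 3387 CPM in CD fast libraries. It was at 2671, 2357, 2856 and 2776 CPM in HFD fed and at 4839.7, 3877, 6096 and 3279 CPM in HFD fast libraries. In both diets all fasted libraries were above all fed libraries. Hp was 1.98-fold higher after fasting in CD (log2 fold change 0.98, SE 0.17, adjusted p = 0.000902) and 1.70-fold higher in HFD (0.76, SE 0.17, adjusted p = 0.0145), and both calls were kept in all 16 leave-one-out fits. The difference between both changes was -0.22 (SE 0.24, adjusted p = 0.640). HFD fed libraries were also above all CD fed libraries, but the change of 0.45 (SE 0.17) had an adjusted p of 0.122, and passed when only these groups were fitted (0.46, adjusted p = 0.0486).

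Apcs encodes serum amyloid P component, a pentraxin that binds amyloid fibrils and is a major acute phase protein of the mouse. It was at 82.9, 66.9, 58.7 and 52.9 CPM in CD fed and at 33.9, 29.3, 29.8 and 35.9 CPM in HFD fed libraries, so that the HFD fed group lay below. It was at 55.4, 63.0, 40.3 and 52.2 CPM in CD fast and at 50.5, 48.5, 109 and 45.6 CPM in HFD fast libraries, which overlapped. Apcs was 2.03-fold lower in HFD than in CD fed livers (log2 fold change -1.02, SE 0.24, adjusted p = 0.0195), a call lost without CD fed replicate 1, CD fed replicate 2 or HFD fed replicate 3 (adjusted p up to 0.0592). It was 1.97-fold higher after fasting in HFD (0.98, SE 0.24, adjusted p = 0.0217). That call was lost without HFD fed replicate 1, 2 or 3 (adjusted p up to 0.0590), and when only these groups were fitted (0.0617), and the change was 0.58 without HFD fast replicate 3. Fasting in CD changed it by -0.31 (SE 0.24, adjusted p = 0.363), and the interaction was 1.29 (SE 0.34, adjusted p = 0.0550). The interaction passed with DESeq2 (adjusted p = 0.00687), with total count scaling (0.0430), with the filter of at least 1 CPM in 4 libraries, and without HFD fast replicate 1 or 4.

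The spread within groups was wide for several members. In CD fast livers the coefficient of variation was 138% for Saa1, 152% for Saa2, 94.99% for Lcn2 and 78.6% for Orm2, against 14.2% for Hp. The median over the 12096 genes with a mean of at least 1 CPM was 12.5% in that group, and the 95th percentile was 37.3%. In HFD fast livers it was 84.5% for Saa1, 90.9% for Saa2 and 84.4% for Orm2, where the median was 10.6% and the 95th percentile 40.1%. HFD fast replicate 3 was the highest of the 16 libraries for 6 of the 10 members, and HFD fed replicate 2 the lowest for 5.

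**Figure D4:**
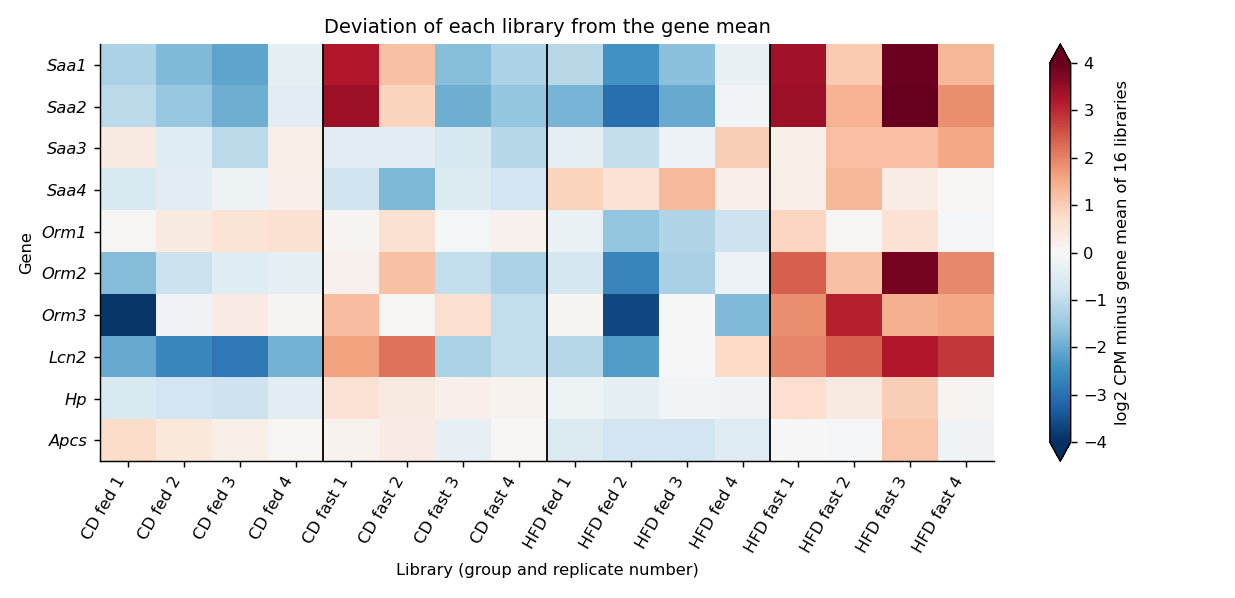
Log2 CPM of each gene in each of the 16 libraries minus the gene's mean, in red above and in blue below that mean. CD fast replicates 1 and 2 are above the mean for Saa1, Saa2, Orm2 and Lcn2, and CD fast replicates 3 and 4 below it.

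Several members varied together over the libraries. Across the 16 libraries, log2 CPM of Saa1 and Saa2 had a Pearson correlation of 0.99, and 0.99 after the group means were subtracted. For Saa1 with Orm2 the values were 0.88 and 0.72, with Lcn2 0.86 and 0.72, and with Hp 0.84 and 0.81. Saa4 had correlations from -0.47 to 0.35 with the other members. These are descriptions over 16 libraries that share the 4 groups and, for Saa1 with Saa2, reads that may be placed in either gene. The genes most like a member were chosen as the 3 with the highest correlation of log2 CPM among 12086 genes outside the members. Each is given with its correlation and, after it, that of the deviations from the group means. For Saa1 they were Map7d1 (0.86 and 0.69), Airn (0.85 and 0.79) and Hbb-bs (0.84 and 0.77), the last a beta-globin gene of red cells. For Orm2 they were Limk1 (0.89 and 0.65), Gas6 (0.86 and 0.71) and Itih4 (0.86 and 0.66). For Lcn2 they were Endod1 (0.92 and 0.76), Plscr1 (0.89 and 0.79) and Anxa2 (0.89 and 0.84), and for Hp Cerkl (0.94 and 0.78), Aldh3a2 (0.93 and 0.60) and Bdh1 (0.93 and 0.52). Of these 12 genes Anxa2 alone was also among the 3 most like its member by deviations, whereas Map7d1 ranked 84, Aldh3a2 148 and Bdh1 368 by that measure. Because Hbb-bs was in this set, 5 erythrocyte genes were chosen after these values were seen. They summed to 306 to 402 CPM in CD fed and 199 to 404 CPM in CD fast libraries, and to 273 to 323 CPM in HFD fed and 299 to 504 CPM in HFD fast libraries. HFD fast replicate 3, the highest library for Saa1, was also the highest for their sum. The 4 globin genes of this list had adjusted p from 0.105 to 0.977 in the 5 comparisons (edgeR). Alas2, the haem synthesis enzyme of erythroid cells, fell with fasting in CD (-1.09, adjusted p = 1.2e-05) and in HFD (-0.38, adjusted p = 0.0365, lost in 6 of the 16 leave-one-out fits). It was higher in HFD than in CD fasted livers (0.39, adjusted p = 0.0365, lost in 7 of the 16), and its interaction was 0.71 (adjusted p = 0.0248, lost in 2). Over all genes, 11.5% were lower for fasting in CD and 4.07% for fasting in HFD, while 3.05% were higher for HFD in fasted mice and 1.23% for the interaction. The part of these 5 genes in the Saa1 result was not tested.

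A list of 23 other positive acute phase genes, all of which were tested, moved in both directions. Fasting in CD gave 8 higher and 6 lower (13.7% and 11.5% of all genes), with a median log2 fold change of 0.08. In the leave-one-out fits Itih3 was lost in 12 of 16, C3 in 4 and Steap4 in 4, their adjusted p being highest when CD fast replicate 2 was left out, and Cp in 9, its adjusted p being highest when CD fed replicate 1 was left out. Fasting in HFD gave 4 higher, Lrg1, Serpina3n, Itih3 and Itih4 (4.78% of all genes were higher), and 2 lower, Serpina3k and Mbl2 (4.07% were lower), with a median of 0.03. Lrg1 and Serpina3n were called in all 16 leave-one-out fits. The calls of Itih3 and Itih4 were lost in 5 and 4 of the 16, with the highest adjusted p without HFD fast replicate 3, and those of Mbl2 and Serpina3k in 5 and 4, with the highest without HFD fed replicate 1. Lrg1, a leucine-rich glycoprotein, had changes of 1.26 in CD (SE 0.23, adjusted p = 0.00108) and 1.25 in HFD (SE 0.23, adjusted p = 0.00451). Lrg1 stood at 209 ± 51.6 CPM in CD fed against 501 ± 144 CPM in CD fast livers, and at 318 ± 20.6 CPM in HFD fed against 755 ± 209 CPM in HFD fast livers. Serpina3n, a serine protease inhibitor, had changes of 0.82 in CD (adjusted p = 0.00217) and 0.91 in HFD (adjusted p = 0.00421). For both genes the fasted libraries were above all fed libraries of their diet.

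The 3 largest changes of the list in CD were those of the metallothionein genes Mt2 (4.06, SE 1.01, adjusted p = 0.00911) and Mt1 (3.64, SE 0.86, adjusted p = 0.00677), and of Il1rn (2.41, SE 0.41, adjusted p = 0.000656), the interleukin 1 receptor antagonist. In HFD these 3 did not pass for fasting with all libraries. Mt1 was at 9.85, 6.83, 10.8 and 100.05 CPM in HFD fed and at 26.4, 35.8, 18.1 and 95.6 CPM in HFD fast libraries, so that HFD fed replicate 4 stood apart from the other HFD fed libraries. Without it all 3 passed, with changes of 2.26 for Mt1 (adjusted p = 0.0328), 2.77 for Mt2 (adjusted p = 0.0326) and 1.62 for Il1rn (adjusted p = 0.0141), and Il1rn also passed without HFD fast replicate 2 (adjusted p = 0.0499). Of the 6 that fell with fasting in CD, 3 were the fibrinogen chain genes Fga, Fgb and Fgg, with changes of -0.67, -0.62 and -0.74. Lbp, the lipopolysaccharide-binding protein gene, rose with fasting in CD (0.99, adjusted p = 3.93e-05) and was higher in HFD than in CD fed livers (0.77, adjusted p = 0.0013). It was the only gene of the list with an interaction call (-0.96, SE 0.16, adjusted p = 0.0112), in a direction that 1.36% of all genes took.

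**Figure D5:**
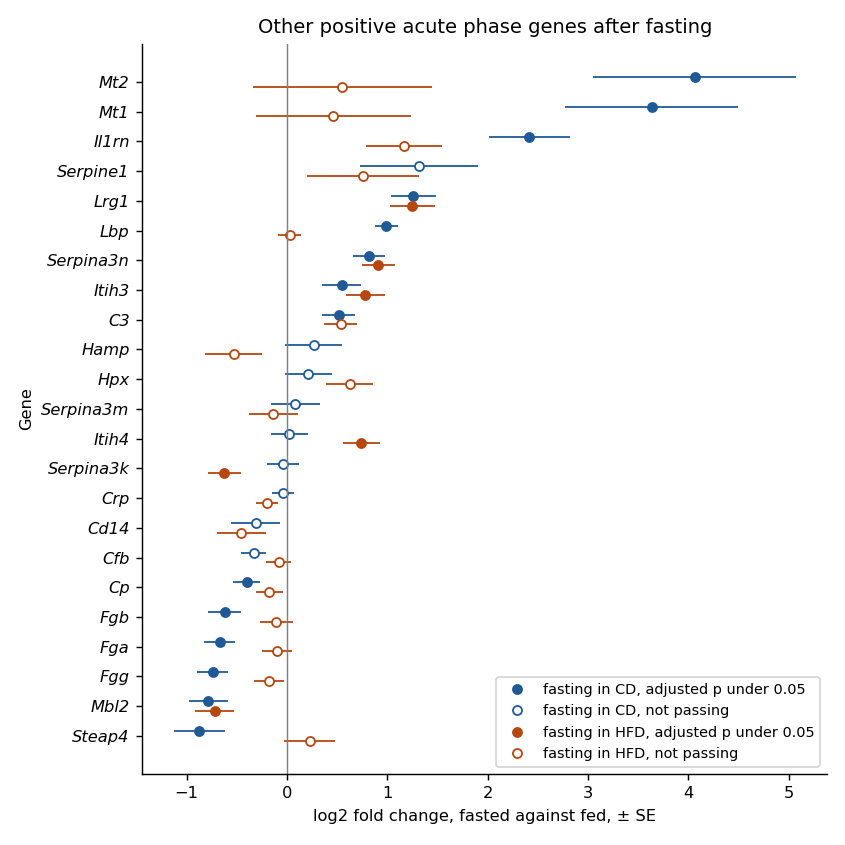
Log2 fold changes of fasting with standard errors for the 23 other positive acute phase genes, in CD in blue and in HFD in orange, filled where the adjusted p was under 0.05. There are 14 filled points for CD, 8 above and 6 below 0, and 6 for HFD, 4 above and 2 below 0.

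For the diet, the list had 2 higher (Il1rn and Lbp) and 2 lower (Fgg and Fga) in fed livers, where 3.28% of all genes were higher and 4.22% lower. In fasted livers it had 2 higher (Itih4 and Steap4) and 2 lower (Serpina3k and Hamp), where 3.05% of all genes were higher and 4.65% lower. Fga and Fgg were lost in 10 and 12 of the 16 leave-one-out fits, Itih4 in 3 and Il1rn in 2, and the other 4 in none. Of 10 negative acute phase proteins, which inflammation lowers, fasting in CD lowered 2, Ttr (-0.92, adjusted p = 0.00436) and Trf (-0.49, adjusted p = 0.0159), which was lost without CD fed replicate 1, and raised 1, Rbp4 (0.64, adjusted p = 0.000637), where 11.5% of all genes were lower and 13.7% higher. For fasting in HFD edgeR called 0 of the 10, with 2 lower at an unadjusted p under 0.05 and 2 called by both DESeq2 and limma-voom. In addition 2 were lower in HFD than in CD fasted livers, Apom (-0.66) and Rbp4 (-0.41; 4.65% of all genes), of which Apom was lost in 3 of the 16 leave-one-out fits and Rbp4 in 5.

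Of the genes upstream of this response, the receptors had the most calls for fasting in CD. Of 10 inducing cytokine genes 5 passed the filter on low counts, and 1 was called, Ctf1 for fasting in CD (0.48, SE 0.10, adjusted p = 0.00372), where 13.7% of all genes were higher. Il6 had 0 to 5 counts in each library. Of 12 cytokine receptor genes, fasting in CD lowered 5 (Lifr, Il1r1, Il1rap, Il6st and Il11ra1, the last lost without CD fed replicate 1) and raised 1 (Tnfrsf1a, lost without CD fast replicate 2), where 11.5% of all genes were lower and 13.7% higher, and fasting in HFD lowered 1 (Il1r1; 4.07% of all genes). Il1r1, the signalling receptor of interleukin 1, fell with fasting in CD (-1.07, adjusted p = 0.00196) and in HFD (-1.06, adjusted p = 0.00686), and was higher in HFD than in CD both in fed (1.24) and in fasted livers (1.25), where 3.28% and 3.05% of all genes were higher. Lifr, the leukaemia inhibitory factor receptor, fell with fasting in CD (-1.39) and was lower in HFD than in CD fed livers (-0.81, adjusted p = 0.00742), as was Il11ra1 (-0.36, adjusted p = 0.0125), where 4.22% of all genes were lower. The interaction of Lifr was 0.91 (adjusted p = 0.0453; 1.23% of all genes were higher), lost in 14 of the 16 leave-one-out fits. Of 25 signalling and transcription factor genes, fasting in CD raised 2, Creb3l3 (0.79) and Myd88 (0.36), where 13.7% of all genes were higher. Fasting in HFD lowered 2, Rela (-0.21) and Hnf4a (-0.55; 4.07% of all genes were lower), where the call of Rela was lost in 7 of the 16 leave-one-out fits. Stat3 was at 107 ± 14.8, 102 ± 3.80, 109 ± 7.14 and 117 ± 10.8 CPM in CD fed, CD fast, HFD fed and HFD fast livers, with adjusted p from 0.177 to 0.873 in the 5 comparisons. Socs3 was at 5.71, 6.70, 6.88 and 55.8 CPM in CD fed replicates 1 to 4. CD fed replicate 4 was also the highest CD fed library for Saa1, Saa2, Saa4, Orm1, Orm2, Lcn2 and Hp, but not for Saa3, Orm3 or Apcs. The part of this library's Socs3 level in the results was not tested.

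Other cell types were followed with marker lists. The macrophage list summed to 382 to 713 CPM in CD fed and 415 to 617 CPM in HFD fed libraries, beside the fasted groups given above. Of its 11 genes 5 fell with fasting in CD, Adgre1 (-1.11), C1qa (-0.70), Csf1r (-0.63), C1qb (-0.56) and Clec4f (-0.54), where 11.5% of all genes were lower, while for fasting in HFD edgeR, DESeq2 and limma-voom each called 0 and 0 had an unadjusted p under 0.05. C1qa was called in all 16 leave-one-out fits, and the other 4 were lost in 1 to 11 of them. Of 7 adipocyte markers 3 were tested. For fasting in HFD, Cfd rose (3.78, SE 0.97, adjusted p = 0.0258) and Adrb3 fell (-0.99, SE 0.27, adjusted p = 0.0365), where 4.78% of all genes were higher and 4.07% lower. Both calls depended on single libraries, with the highest adjusted p without HFD fast replicate 2 for Cfd (0.101) and without HFD fed replicate 2 for Adrb3 (0.111). The adipocyte list summed to 9.71 to 76.5 CPM in HFD fast libraries, highest in HFD fast replicate 2 through 70.1 CPM of Cfd. In each group only 2 of the 7 genes, Cfd and Adrb3, had a mean of at least 1 CPM, and the group means of Adrb3 were 5.24 to 11.1 CPM. The adipocyte gene Adipoq stayed below 1 CPM in all 16 libraries. The sum and the fall of Adrb3 therefore rest on these 2 genes and not on the list as a whole. HFD fast replicate 2 was the highest of the 16 for Saa4 and Orm3, and the part of these markers in the results was not tested.

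Among 9 receptor and clearance genes, Cd36, a fatty acid transporter and scavenger receptor, rose with fasting in CD (1.26, SE 0.31, adjusted p = 0.00792), and Fcgr1 fell (-0.75, SE 0.23, adjusted p = 0.0283, lost in 3 of the 16 leave-one-out fits), where 13.7% of all genes were higher and 11.5% lower. Cd36 was also higher in HFD than in CD fed livers (1.18; 3.28% of all genes were higher), lost in 6 of the 16. Lrp1 (0.36) and Fcgr1 (0.89) were higher in HFD than in CD fasted livers (3.05% of all genes were higher), lost in 9 and 5. Of 7 T and B cell markers, 1, Cd4, fell with fasting in CD (-1.19, adjusted p = 0.00395; 11.5% of all genes were lower) and was lower in HFD than in CD fed livers (-0.93, adjusted p = 0.038, lost in 6 of the 16; 4.22% of all genes were lower), and the list summed to 2.29 to 7.00 CPM over all libraries. Of the 8 hepatocyte markers 1, Ttr, fell with fasting in CD (11.5% of all genes), and 2, Hnf4a and Tat (-1.35), fell with fasting in HFD (4.07% of all genes), where the call of Tat was lost in 10 of the 16. Apoc3 was lower in HFD than in CD fed livers (-0.47, lost in 5 of the 16; 4.22% of all genes were lower), and Apoc3 (-0.57) and Tat (-1.92) were lower in HFD than in CD fasted livers (4.65% of all genes). The hepatocyte list summed to 107269 to 133961 CPM in CD fed and 85793 to 108737 CPM in CD fast libraries. On the high-fat diet it summed to 108816 to 136586 CPM in fed and 72985 to 104866 CPM in fasted libraries, without overlap. Most of this was Alb, at 85512 to 112653 CPM in HFD fed and 52371 to 83050 CPM in HFD fast libraries, which did not overlap either. The sum therefore mainly follows a single gene. The part of this lower sum in the fasting results was not tested.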

How the data were processed

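Libraries were made from polyadenylated liver RNA and sequenced as paired 100-base reads on a HiSeq instrument. The authors deposited raw counts of reads per Ensembl gene, and the submitters' processing notes name CASAVA 1.8.4, TopHat2 2.0.11 and featureCounts. Per the study's methods, reads were aligned to GRCm38 in first-strand mode with an Illumina iGenomes annotation. The release of that annotation, and the settings of featureCounts for strand, pairs and reads with several placements, are not given in the sources used here. Of the 46078 rows, 45143 were matched to gene symbols and 935 were not.

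The 10 members and the gene lists were chosen with earlier results of these data known, from textbook knowledge of the acute phase response. Genes with low counts were removed with filterByExpr, and 15075 genes were fitted in edgeR 4.0.16 (R 4.3.3) with TMM scaling, 1 coefficient per group and the quasi-likelihood test, on 12 residual degrees of freedom. The common coefficient of variation was 19.2%. Fasting was compared within each diet, HFD with CD within each feeding state, and both fasting changes by the interaction. P-values were adjusted by the Benjamini-Hochberg method over all genes tested, with a threshold of 0.05. CPM are counts per 1000000 counts of the TMM-scaled library total, with a prior count of 2 before the log2 scale was taken. Levels are given with the SD over 4 libraries. Library totals were 41364448 to 57583153 counts, so that low members such as Orm3 carry the most counting error. Depth differed between groups, with CD fed libraries at 55415835 to 57583153 counts and all other libraries at 41364448 to 53982285. TMM factors were 0.929 to 0.984 in CD and 1.00 to 1.13 in HFD libraries.

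Sequence windows came from RefSeq (GRCm38.p6) and transcript lengths and identities from GENCODE M21 principal transcripts. No protein table was used. From the other lists, up to 3 genes per list and comparison were named by the largest absolute log2 fold change among those with an adjusted p under 0.05 and a mean of at least 1 CPM. Further genes of these lists were named after their values were seen, as were the erythrocyte genes.

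Alternatives were DESeq2 1.42.0, limma-voom (limma 3.58.1), other scalings and filters, fits restricted to the pair of groups compared, a replicate block, leaving out each library, and Saa1 and Saa2 summed. The Saa2 share was compared by an exact permutation test over libraries (SciPy 1.17.1). The fits were also run on simulated data, and no result given here rests on that run. Figures were drawn with matplotlib 3.10.9. A result of the signalling list is not reported here.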

Additional observations from a re-analysis of the deposited data

Results flagged for a closer look

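In 40 groups of 4 libraries, 3 had a library far from the others, with a gap to its nearest neighbour, as a share of the range of log2 CPM, above Dixon's critical value, which chance passes in about 1 in 20 groups. HFD fast replicate 2 was the highest of its group for Saa4, at 751 CPM, with a gap of 0.83 of the range. CD fed replicate 1 was the lowest of its group for Orm3, at 0.0547 CPM or 3 counts, with a gap of 0.876 of the range. HFD fast replicate 3 was the highest of its group for Apcs, at 109 CPM, with a gap of 0.882 of the range.

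With all libraries, the effect of fasting on Orm1 differed between the diets, with a log2 fold change in HFD that was 1.47 above that in CD (SE 0.37, edgeR interaction, adjusted p = 0.0453). This was lost in 12 of the 16 fits without a library (adjusted p up to 0.0956).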

How the results depend on the processing

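Of 1285 member values under alternative settings, 1197 kept their direction and their side of the threshold, 49 lost their call, 24 gained one and 15 changed sign. Only results called with all libraries can lose a call, and most of these values belong to results that were not called. The 49 are therefore not a share of 1285 calls. None of those that changed sign was called, and the cause was not tested. The number of members called for fasting in CD was 3, 1 with limma-voom, 2 to 4 with the other settings and 2 to 4 without any 1 library. For fasting in HFD it was 8, 7 to 9 with other settings and 3 to 9 without any 1 library. For HFD in fed mice it was 2, 4 with DESeq2, 4 with only the groups compared, 2 to 3 with the other settings and 1 to 3 without any 1 library. For HFD in fasted mice it was 3, 1 with only the groups compared, 4 with limma-voom, 2 to 3 with the other settings and 2 to 3 without any 1 library. For the interaction it was 1, 3 with DESeq2, 2 with total count scaling, 2 with the filter of at least 1 CPM in 4 libraries and 0 to 2 without any 1 library. The libraries that decide these counts are named beside the results. Total count scaling moved the median of all genes for HFD in fasted mice from 0.01 to 0.17 and the share of higher calls from 39.6% to 88.1%, with 3 members called as before. It moved that share from 54.0% to 67.6% for fasting in HFD, from 43.8% to 68.8% for HFD in fed mice, from 47.4% to 69.5% for the interaction and from 54.4% to 44.3% for fasting in CD. Upper quartile scaling moved it to 51.2% for HFD in fasted mice.

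By the rule that every same-numbered pair must correlate above 0.1, replicate numbers were not taken to pair the libraries: 8 of 24 same-numbered pairs had a correlation of deviations above 0.1 (range -0.24 to 0.66), and 5 of 16 libraries correlated best with a library of their own number. Fed and fasted libraries of the same diet and number correlated at 0.05 to 0.11 in CD and at 0.06 to 0.66 in HFD. Each CD fed library correlated best, among the CD fast libraries, with that of its own number. Among HFD fed libraries only replicate 4 did so with the HFD fast libraries. The rule also counts pairs across diets, so it cannot decide whether libraries were paired within a diet. With a replicate block, fasting had 2 calls in CD and 8 in HFD, the diet 2 in fed and 2 in fasted livers and the interaction 0, and the diet change of Saa1 in fed livers was -0.0013. The block left Saa1 for fasting in CD at an adjusted p of 0.0856, Orm2 for HFD in fasted mice at 0.0593 and the Orm1 interaction at 0.0602.

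The diet changes that changed sign without a library had these ranges in fed livers: -0.40 to 0.50 for Saa1, -1.10 to 0.11 for Saa2, -0.36 to 0.39 for Saa3 and -0.56 to 0.11 for Orm2. In fasted livers the ranges were -0.010 to 0.33 for Orm1 and -0.13 to 0.40 for Apcs. With Saa2 counts added, the Saa1 change in fed livers was -0.010. The Lcn2 interaction was 0.60 with limma-voom and ranged from -0.81 to 0.23 without a library. The difference in Saa2 share for fasting in CD was 0.114 percentage points from group sums, and its range without any 1 library was -5.53 to -3.28, against 8.40 to 12.1 for fasting in HFD, -8.90 to -5.22 for HFD in fed mice and 6.25 to 8.71 for HFD in fasted mice. How far the 3 counts behind the lowest Orm3 values, or reads that could be placed in either gene of a near-identical pair, bear on these results was not tested.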
